A study of Mus musculus with 2 samples.

Results

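Matrix metalloproteinases (MMPs) and the tissue inhibitors that block them were described across the cells of 2 lung libraries of the mouse, 1 from Cebpa fl/fl animals (the control library) and 1 from Cebpa ΔSftpc animals. The members were chosen by symbol and are 10 of the 32285 genes in the count tables: the proteases Mmp2, Mmp3, Mmp8, Mmp9, Mmp12, Mmp14 and Mmp19 and the inhibitors Timp1, Timp2 and Timp3. All 10 were found in the tables, and all 10 had UMIs in both libraries. A UMI (unique molecular identifier) tags 1 captured RNA molecule, so that its PCR copies are counted once.

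Cebpa ΔSftpc mice carry floxed Cebpa alleles and Sftpc-CreERT2, a tamoxifen-inducible Cre that the surfactant protein C gene drives in alveolar type 2 (AT2) epithelial cells, and their Cebpa fl/fl controls carry the floxed alleles without that Cre. Per the study's methods, tamoxifen was given in 5 daily injections of 75 mg/kg with a further round of weekly injections in long experiments, mice were age matched on mixed backgrounds and 3 months old where no other age is given, and lungs were taken 26 weeks after the first injection. The lungs of 3 mice per genotype went into each library and the barcodes do not mark the mouse, so each genotype is 1 sample, no difference between them has a replicate check, and no test was made. The labels refer to a flow cytometry sorting protocol for the cell suspensions, and whether the cells loaded were sorted was left unresolved.

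MMPs are zinc-dependent endopeptidases that cut collagens, elastin, proteoglycans and many signaling proteins outside the cell. Most are secreted as inactive proenzymes, whereas Mmp14 is held in the cell membrane, where it binds Timp2 and activates the Mmp2 proenzyme. TIMPs bind active MMPs and block them, and Timp3 differs from the others in that it is bound to the matrix and also blocks ADAM and ADAMTS proteases. In the lung, fibroblasts are known for making Mmp2, Mmp14 and the TIMPs, neutrophils for storing Mmp8 and Mmp9 in granules, and macrophages for making Mmp12, the macrophage elastase.

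The 2 libraries held 69200420 UMIs in 11721 barcodes (Cebpa fl/fl) and 64697396 UMIs in 13373 barcodes (Cebpa ΔSftpc), of which 11487 and 13238 cells passed the filter with medians of 4835 and 2607 UMIs. In all, 44 barcode sequences occurred in both. Cells were sorted into 27 classes by the raw counts of marker genes, none of which is a member, and 83.1% and 67.1% of cells met a gate. A class is called by the markers that gated it, such as adventitial fibroblast-like. Cells with leukocyte markers numbered 131 in the control and 2208 in the Cebpa ΔSftpc library, and Ptprc, the pan-leukocyte gene, stood at 16.2 and 369 CPM (counts per 1000000 UMIs). The control library held 3 neutrophil-like and 11 interstitial macrophage-like cells, so the myeloid genes can be described in depth only in the Cebpa ΔSftpc library. In AT2-like cells, Cebpa itself stood at 157 CPM (149 to 166, 384 cells) and 114 CPM (94.2 to 136, 71 cells). Levels below are the summed UMIs of a gene over the cells of a class over all UMIs of those cells, as CPM. Bracketed ranges are exact 95% intervals that cover counting error only, and levels are compared within a gene and not between genes.

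Some of the proteases are neighbors in the genome. Mmp12, Mmp3 and Mmp8 lie within 224105 bases of mouse chromosome 9 (GRCm38, chr9:7344381-7568485), in the order Mmp12 (7344381 to 7369499), Mmp1b, Mmp3 (7445822 to 7455975), Mmp10 and Mmp8 (7558456 to 7568485). All 5 of these genes code for proteins, and of them only Mmp1b lies on the minus strand. These neighbors did not share a leading class. Mmp3 had 6304 and 1531 UMIs in the control and Cebpa ΔSftpc libraries, mostly in fibroblast-like cells. Mmp8 had 28 and 1320 UMIs and Mmp12 had 5 and 186. In the Cebpa ΔSftpc library, neutrophil-like cells held 46.6% of Mmp8 and interstitial macrophage-like cells 65.6% of Mmp12. Mmp10 had 0 and 4 UMIs and Mmp1b had 0 in both.

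Because these 3 neighbors had 3 different sources, the 150 bases before each start in the RefSeq promoter table are shown here 5′ to 3′ (GRCm38.p6, plus strand), with matches to 2 motifs in capitals. The motifs are the AP-1 element TGANTCA, whose factors follow growth and stress signals, and the C/EBP element TTGCNNAA, written TTNNGCAA on the other strand, which the protein family of Cebpa binds.
Mmp3, chr9:7445672-7445821: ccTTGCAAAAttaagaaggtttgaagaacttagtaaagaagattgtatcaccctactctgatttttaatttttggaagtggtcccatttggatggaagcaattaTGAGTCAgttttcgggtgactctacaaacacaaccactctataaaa
Mmp8, chr9:7558279-7558428: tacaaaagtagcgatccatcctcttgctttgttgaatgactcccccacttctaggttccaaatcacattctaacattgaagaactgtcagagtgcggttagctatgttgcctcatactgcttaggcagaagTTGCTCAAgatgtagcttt
Mmp12 start 1, chr9:7344247-7344396: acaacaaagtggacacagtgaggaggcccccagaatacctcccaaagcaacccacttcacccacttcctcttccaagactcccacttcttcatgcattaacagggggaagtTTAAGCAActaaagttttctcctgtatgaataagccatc
Mmp12 start 2, chr9:7347224-7347373: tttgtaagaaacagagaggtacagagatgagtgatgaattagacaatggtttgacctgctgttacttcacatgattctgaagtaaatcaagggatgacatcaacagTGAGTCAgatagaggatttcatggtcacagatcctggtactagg
The Mmp3 window holds an AP-1 match at -46 and a C/EBP match at -148, counted from the start. The Mmp8 window holds a C/EBP match at -19 and no AP-1 match. For Mmp12, the first start has a C/EBP match at -39 and the second an AP-1 match at -44. Over windows of 300 bases, 7.81% of the 32851 promoters in the table hold an AP-1 match and 10.8% a C/EBP match on either strand. The promoters of Timp1, Timp2, Timp3 and Mmp14 hold neither. The Ets-type element AGGAAG or its complement CTTCCT, found in 35.4% of all promoters, occurs in the window of every member matched but Timp2 and the second Mmp12 start. The 7 members matched had 8 promoters. For Mmp2, Mmp9 and Mmp19 the promoter table used here had no entry of 300 bases. A match describes these letters and says nothing of a factor bound there.

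The other members are spread over the genome. Mmp2 lies on chr8:92827291-92853420, Mmp9 on chr2:164940780-164955850, Mmp14 on chr14:54431612-54445364 and Mmp19 on chr10:128790910-128800824. Of the inhibitors, Timp1 lies on chrX:20870166-20874735 inside the gene Syn1, Timp2 on chr11:118301069-118355740 and Timp3 on chr10:86300372-86349506 inside the gene Syn3. Syn1 and Syn3 run on the opposite strand. Whether the authors' counting used strand is not given in the sources used here, so reads of Timp3 and Syn3 may not be cleanly told apart, and Syn3 (1802 and 1392 UMIs against 48679 and 39313 for Timp3) had the pattern across classes most like that of Timp3. Mmp19 also shares bases with Tmem198b on the opposite strand (728 and 641 UMIs). Timp2 shares bases with Cep295nl on the same strand (120 and 95 UMIs).

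**Figure D1:**
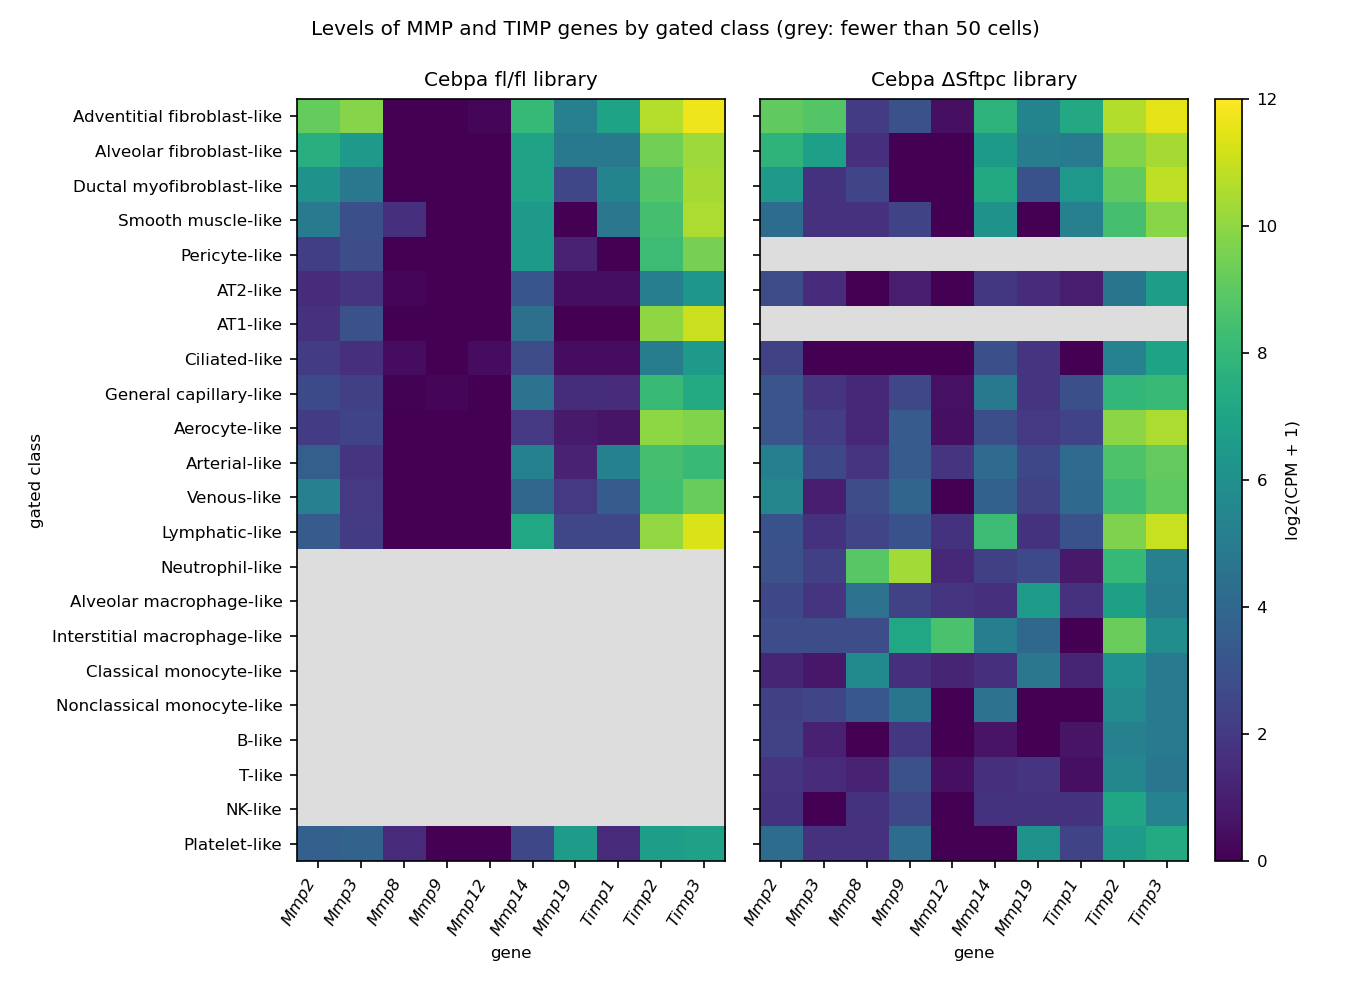
Level of each of the 10 genes, as log2(CPM + 1), in each gated class (rows) of the control (left) and Cebpa ΔSftpc (right) library, with classes of fewer than 50 cells in grey. Colors are to be read down a column, since levels of different genes are not comparable: Mmp2 and Mmp3 were brightest in adventitial fibroblast-like cells, Mmp8 and Mmp9 in neutrophil-like cells, and Timp2 and Timp3 were seen in stromal and endothelial rows alike.

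The gelatinase Mmp2, which cleaves denatured and basement membrane collagen, was a fibroblast gene in both libraries. Its level in adventitial fibroblast-like cells, gated by genes such as Pi16 that mark fibroblasts of the vessel and airway sheath, was 569 CPM (550 to 589, 675 cells) in the control and 529 CPM (500.1 to 558, 509 cells) in the Cebpa ΔSftpc library. Alveolar fibroblast-like cells came second with 184 CPM (163 to 207) and 224 CPM (184 to 270.4), and ductal myofibroblast-like cells came after them with 67.3 CPM (50.7 to 87.6) and 89.4 CPM (63.3 to 123). In neither library did the intervals of these 3 classes overlap with each other, so their order was the same in both. Venous-like cells followed with 36.4 and 42.5 CPM, and from there on the intervals of neighbors in the order overlapped. AT2-like cells held 15 and 6 UMIs in all, 1.89 and 5.63 CPM.

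Stromelysin-1, the product of Mmp3, degrades proteoglycans and activates other proMMPs. Adventitial fibroblast-like cells had 902 CPM of Mmp3 (877 to 926, 5200 UMIs) in the control and 437 CPM (411 to 464, 1071 UMIs) in the Cebpa ΔSftpc library. Alveolar fibroblast-like cells, the second source, had 86.3 CPM (72.1 to 102) and 107 CPM (79.9 to 140.2). These levels rest on few cells: 131 UMIs in 32 of 303 and 52 UMIs in 14 of 102 cells, with 50% of them in 3 and 2 cells. The 2 fibroblast classes thus stood further apart in the control than in the Cebpa ΔSftpc library. The membrane protease Mmp14 was less bound to 1 class. Its level was highest in adventitial fibroblast-like cells in the control library (262 CPM, 249 to 276) but in lymphatic-like cells in the Cebpa ΔSftpc library (296 CPM, 246 to 353), where adventitial fibroblast-like cells had 217 CPM (199 to 236). Without the lymphatic-like cell with the most Mmp14, its level there was 221 CPM. In the control library, Mmp14 in lymphatic-like (140.05 CPM), alveolar fibroblast-like (119 CPM), ductal myofibroblast-like (119 CPM), pericyte-like (93.2 CPM) and smooth muscle-like (85.8 CPM) cells could not be put in order, because the intervals of neighbors overlapped.

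Mmp19, a stromelysin-like protease of macrophages and fibroblasts, was the least abundant of the stromal members in UMIs. It was found in platelet-like (94.5 CPM, 71.6 to 122), adventitial fibroblast-like (36.6 CPM, 31.8 to 41.9) and alveolar fibroblast-like cells (28.3 CPM, 20.5 to 38.1) of the control library. In the Cebpa ΔSftpc library these 3 classes had 68.2 CPM (46.03 to 97.4), 41.2 CPM (33.6 to 50.1) and 32.9 CPM (18.8 to 53.4), and alveolar macrophage-like cells, of which the control library had only 1, had 97.9 CPM (88.3 to 108). Platelet-like cells are small, with medians of 1018 and 1418.5 UMIs, and when free RNA was estimated, 0.902 and 0.474 of their profile was attributed to it. Their Mmp19 levels rest on 57 UMIs in 39 cells and 30 in 24 cells.

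Timp1, an inhibitor known to respond to injury and cytokines, was a fibroblast gene like Mmp2. It stood at 122 CPM (113 to 132) and 151 CPM (136 to 168) in adventitial fibroblast-like cells and at 41.6 CPM (28.8 to 58.2) and 82.4 CPM (57.4 to 115) in ductal myofibroblast-like cells. Timp2 and Timp3 had wider sources. Among classes of at least 50 cells, Timp2 was highest in adventitial fibroblast-like cells (1596 CPM, 1564 to 1629, and 1561 CPM, 1512 to 1612). Lymphatic-like (1063 CPM), AT1-like (1034 CPM) and aerocyte-like cells (999 CPM), the last a capillary class of the alveolus, followed in the control library with overlapping intervals. Timp3 had a like order there, with 3334 CPM (3287 to 3381) in adventitial fibroblast-like, 2589 CPM in lymphatic-like and 2080.5 CPM in AT1-like cells, and no overlap between these.

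Among epithelial classes of the control library with at least 50 cells, Timp2 and Timp3 were highest in AT1-like cells, where Timp1 had 0 UMIs. In the 69 AT1-like cells of the control library, the thin gas-exchange cells, Timp2 stood at 1034 CPM (941 to 1135) and Timp3 at 2080.5 CPM (1947 to 2221), against 34.4 CPM and 77.9 CPM in the 384 AT2-like cells of that library. The other members had between 0 and 9 UMIs in AT1-like cells. The Cebpa ΔSftpc library had 21 AT1-like cells, with 26 UMIs of Timp2 (320.04 CPM, 209 to 469) and 51 of Timp3 (628 CPM, 467 to 825). These were fewer than the 50 cells required, so no ratio was made. Their first 10 leading genes were, in order, Sprr1a, Krt7, Aqp5, Ager, Krt18, Cldn18, Krt8, Igfbp2, Clic3 and Krt5. Of these, 2, Aqp5 and Ager, were markers of the AT1 class gate, and Krt7, Krt18 and Krt8 were markers of the epithelial lineage gate. In AT2-like cells, Timp3 stood at 77.9 and 102 CPM and Timp2 at 34.4 and 24.4 CPM in the control and Cebpa ΔSftpc libraries. Mmp14 had 65 UMIs in 53 of 384 AT2-like cells of the control library and 3 UMIs among 71 in the Cebpa ΔSftpc library. Mesothelial-like cells, 10 in the control library, had the highest Timp2 level of that library (3333 CPM, 2981 to 3715) and 14 UMIs of Timp1.

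For a view of the whole library, the UMIs of each gene were divided by lineage. Mesenchymal-like cells held 86.4% of Mmp2, 90.2% of Mmp3, 67.03% of Mmp14 and 81.1% of Timp1 UMIs in the control library, and 68.6%, 78.1%, 43.2% and 64.3% in the Cebpa ΔSftpc library. Timp2 was held mostly by endothelial-like cells in both (56.1% and 63.8%), and Timp3 mostly by mesenchymal-like cells in the control (55.9%) but by endothelial-like cells in the Cebpa ΔSftpc library (61.2%). For Mmp19, the leukocyte-like share was 0.662% and 53.2%. Epithelial-like cells held 2.55% and 0.624% of Timp2 and 3.86% and 1.02% of Timp3. These shares follow the number and depth of the cells of each lineage as well as the level in each cell. The mesenchymal-like cells numbered 1708 and 1105, with medians of 6034.5 and 1960 UMIs.

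**Figure D2:**
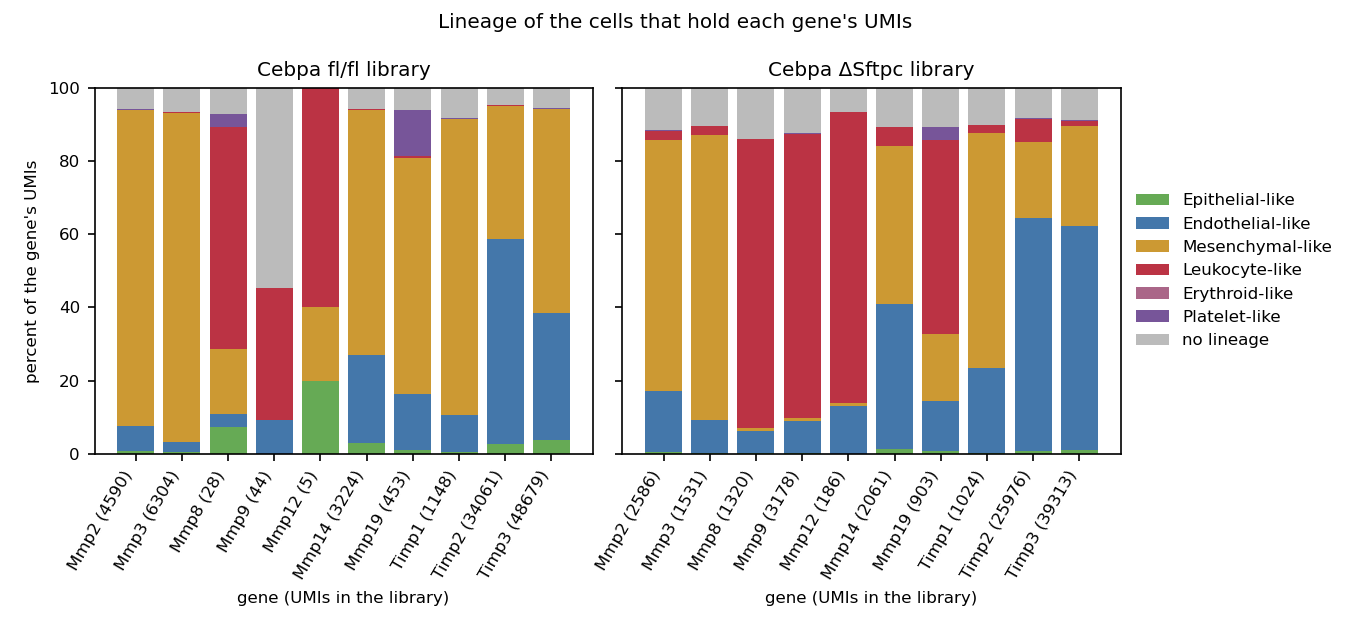
Percent of the UMIs of each gene (bars, summing to 100) held by cells of each lineage in the control (left) and Cebpa ΔSftpc (right) library, with the number of UMIs of the gene in brackets on the axis. The leukocyte-like part of Mmp8, Mmp9, Mmp12 and Mmp19 made up 78.9%, 77.8%, 79.6% and 53.2% in the Cebpa ΔSftpc library, while in the control library the first 3 of these had 28, 44 and 5 UMIs in all.

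In the myeloid cells of the Cebpa ΔSftpc library, Mmp8, Mmp9, Mmp12 and Mmp19 were highest in 3 classes, with Mmp8 and Mmp9 sharing 1. Neutrophil-like cells had 1300.4 CPM of Mmp9 (1239.6 to 1363), the gelatinase of neutrophil granules, with 1715 UMIs in 288 of 333 cells (86.5%; median 3928 UMIs). T-like cells, which served as a background, had a UMI of Mmp9 in 10 of 286 cells (3.50%; median 8105.5 UMIs). After each cell was thinned to 1000 UMIs, the shares were 66.9% of 308 and 1.42% of 282 cells. The neutrophil collagenase Mmp8 stood at 466 CPM (430.2 to 505) in neutrophil-like cells, with 615 UMIs in 165 cells, and thinned shares of 30.2% and 0.355%. Of the thinned neutrophil-like cells, 21.8% had both Mmp8 and Mmp9, where the product of the single shares is 20.2%. The 3 neutrophil-like cells of the control library had 7 UMIs of Mmp8 in 3 cells and 11 of Mmp9 in 1 cell. These are 824 CPM (331 to 1698) and 1295 CPM (646 to 2317), and their wide intervals hold the levels of the Cebpa ΔSftpc library.

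The UMIs of Mmp9 were spread over neutrophil-like cells, 70 of which held 50% of them and none more than 29. Those of Mmp8 were less evenly spread, with 50% in 32 cells and up to 36 in a cell. Neutrophil-like cells were split by other genes after their values were seen. The 28 cells with a UMI of the secondary granule genes Ngp, Camp or Ltf, which are transcribed in immature neutrophils, had 764 CPM of Mmp8 (624 to 927) and the other 305 cells had 432 CPM (396 to 472), so these intervals did not overlap. For Mmp9 they were 1528 CPM (1327 to 1752) and 1274 CPM (1211 to 1340.5), which overlapped. A split by the chemokine genes Ccl3 and Ccl4 at a sum of 3 UMIs put 36 cells on 1 side. Mmp9 was 1297 and 1301 CPM on its 2 sides and Mmp8 553 CPM (459 to 660.4) and 449 CPM (410.1 to 490.3), with overlapping intervals for both genes. Median depth was 4813.5 and 3772 UMIs on the 2 sides of the granule gene split and 5553.5 and 3603 on those of the chemokine split. The granule gene split rests mostly on Ngp, which stood at 28.1 CPM (19.8 to 38.7) in neutrophil-like cells. Camp had 9 UMIs in the whole Cebpa ΔSftpc library, and Ltf reached no more than 2.67 CPM in any of its classes of at least 50 cells.

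Outside neutrophil-like cells, Mmp8 was next highest in classical monocyte-like (52.4 CPM, 41.2 to 65.7, 75 UMIs in 40 of 159 cells) and alveolar macrophage-like cells (22.3 CPM, 17.9 to 27.5, 88 UMIs in 52 of 388 cells). Mmp9 was next highest in interstitial macrophage-like cells (146 CPM, 107 to 194). There, 8 of 64 cells held its 47 UMIs and 1 of them held 18. Each value was also expressed as a percent of the level in neutrophil-like cells and set beside the abundant neutrophil genes S100a8, S100a9 and Retnlg. The part of free neutrophil RNA in these values was not tested beyond these percents. Mmp8 in classical monocyte-like cells was at 11.2% of its neutrophil-like level (8.85% to 14.1%), and S100a8 was at 0.183% of its own there. In alveolar macrophage-like cells, Mmp8 was at 4.78% and S100a8 at 0.235%. Mmp9 in interstitial macrophage-like cells was at 11.2%, and S100a8 at 0.180%. In these 3 class and gene pairs the interval of the member lay above that of S100a8, S100a9 and Retnlg. In nonclassical monocyte-like cells, by contrast, Mmp8 (1.84%), Mmp9 (1.90%) and S100a8 (1.99%) lay close together and below Retnlg (3.36%).

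**Figure D3:**
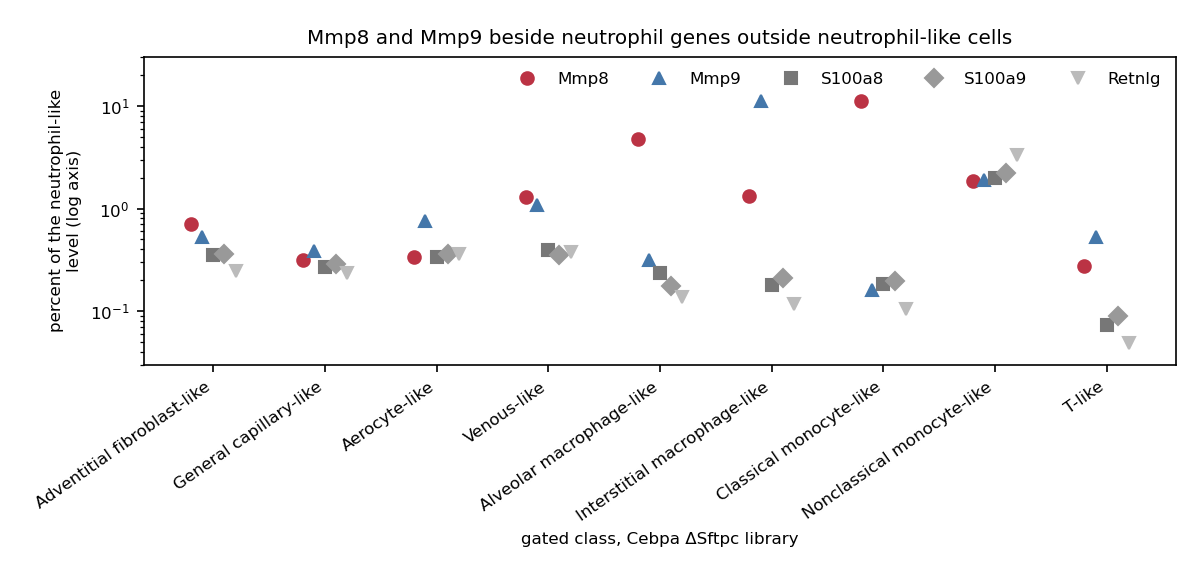
Level of Mmp8, Mmp9, S100a8, S100a9 and Retnlg in 9 gated classes of the Cebpa ΔSftpc library as a percent of their level in neutrophil-like cells, on a log axis. Mmp8 stands above the other genes in classical monocyte-like (11.2%) and alveolar macrophage-like cells (4.78%) and Mmp9 in interstitial macrophage-like cells (11.2%).

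Mmp12 was highest by far in interstitial macrophage-like cells, the C1q-positive macrophages, with 378 CPM (314 to 452) there against 2.54 CPM (1.22 to 4.66) in alveolar macrophage-like cells. Its 122 UMIs lay in 12 of 64 cells (18.8%; median 2111.5 UMIs), and 2 cells held 50% of them. The cell with the most had 49, and without it the level was 234 CPM. T-like cells had a UMI of Mmp12 in 1 of 286 cells (0.350%). The 11 interstitial macrophage-like cells of the control library held 3 UMIs of Mmp12, 56.5 CPM (11.6 to 165), and 5 of Mmp9. Mmp19, in contrast, lay in alveolar macrophage-like cells, with 386 UMIs in 144 of 388 cells (37.1%) and 30 cells holding 50% of them. Interstitial macrophage-like cells had 5 UMIs of Mmp19 (15.5 CPM, 5.03 to 36.2). Of the 2 macrophage classes, Mmp12 was thus higher in interstitial and Mmp19 in alveolar macrophage-like cells.

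Inhibitors were scarce in myeloid cells, with the exception of Timp2. Interstitial macrophage-like cells had 617 CPM of Timp2 (534 to 709), neutrophil-like cells 262 CPM (235 to 291) and alveolar macrophage-like cells 111 CPM (101 to 122). Classical and nonclassical monocyte-like cells had 66.4 CPM (53.7 to 81.2) and 54.3 CPM (41.1 to 70.3). Timp2 was not confined to myeloid classes, since NK-like cells had 135 CPM (102 to 175), T-like cells 46.8 CPM (38.4 to 56.4) and B-like cells 36.2 CPM (27.8 to 46.3). Timp1 had 1 UMI in 333 neutrophil-like, 9 in 388 alveolar macrophage-like and 0 in 64 interstitial macrophage-like cells, where 3 counts would be 9.30 CPM and the exact interval reaches 11.4 CPM. Timp3 was between 12.9 and 58.9 CPM in all myeloid classes. Among the leukocyte-like cells as a whole, the Cebpa ΔSftpc library held 2472 UMIs of Mmp9, 1041 of Mmp8, 1676 of Timp2, 532 of Timp3 and 21 of Timp1.

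Levels within a class were then compared between the libraries, as the log2 ratio of the Cebpa ΔSftpc to the control level. This was done in the 12 classes with at least 50 cells in both libraries, for 52 class and gene pairs with at least 50 UMIs over both. With 1 library per genotype, a difference between genotypes and a difference between 2 libraries cannot be told apart, and the intervals below hold counting error only. To read the members against the rest of the transcriptome, the share of all genes past the same 2-fold is given for each class.

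In adventitial fibroblast-like cells, Mmp3 was the only one of the 7 members tested to pass 2-fold lower (log2 ratio -1.04, -1.14 to -0.95), where 1.15% of 10465 genes did. It was no longer past 2-fold with a stricter gate (-0.94) or among cells with at least 3000 UMIs (-0.95). No member passed 2-fold higher, where 2.29% of genes did. Mmp2 differed little (-0.11, -0.20 to -0.01), Mmp14 was at -0.27 (-0.42 to -0.13), Timp2 at -0.03 (-0.09 to 0.02) and Timp3 at -0.21 (-0.25 to -0.17). Mmp19 was at 0.17 (-0.18 to 0.52). Timp1 was at 0.31 (0.12 to 0.49), but 86 of its 371 UMIs in the Cebpa ΔSftpc library came from 1 cell, and without the leading cell of each library the ratio was -0.02. The median over the 7 members was -0.11 and over all genes 0.02.

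Mmp3 was held by few of the adventitial fibroblast-like cells. It was seen in 236 of 675 cells of the control and 109 of 509 cells of the Cebpa ΔSftpc library (34.96% and 21.4%; medians of 8264 and 1999 UMIs), and 23 and 8 cells held 50% of its UMIs, with up to 313 and 132 in a cell. General capillary-like cells of the Cebpa ΔSftpc library, as a background, had a UMI of Mmp3 in 1.04% of 3378 cells. Mmp2 was spread more widely, over 554 and 281 cells, 110 and 39 of which held 50% of its UMIs. After thinning to 1000 UMIs, Mmp3 was found in 21.3% (18.3% to 24.7%) of 661 and 15.9% (12.6% to 19.7%) of 440 cells and Mmp2 in 35.2% (31.6% to 39.03%) and 31.4% (27.0% to 35.9%). Their intervals overlapped between the libraries for both genes. Timp3 was found in 574 of 661 and 330 of 440 thinned cells and Timp2 in 467 and 297. Cells with both Mmp2 and its inhibitor Timp2 made up 25.6% and 19.8%, and the products of the single shares are 24.9% and 21.2%.

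After the values were seen, adventitial fibroblast-like cells were split by Pi16, a gene of the gate. Cells with a Pi16 UMI had 918 CPM of Mmp3 (890 to 947, 466 cells) in the control and 553 CPM (519 to 590, 269 cells) in the Cebpa ΔSftpc library. Cells without one had 849 CPM (801 to 899.5, 209 cells) and 158 CPM (130 to 190.03, 240 cells). In the Cebpa ΔSftpc library, Mmp3 was thus lower in the cells without Pi16, while the intervals of Mmp2 overlapped (538 CPM, 504 to 573, and 506 CPM, 456 to 561). In the control library it was the other way. The Mmp3 intervals overlapped there, and Mmp2 was 587 CPM (565 to 610) with Pi16 and 511 CPM (473 to 550) without it. Mmp14 was 280 CPM (264 to 296) and 205 CPM (181 to 230) in the control library. It was 231 CPM (209 to 255) and 183 CPM (153 to 217), with overlap, in the Cebpa ΔSftpc library. Timp1 was 175 CPM (155 to 195) with Pi16 and 95.7 CPM (74.5 to 121) without it in that library, and 134 and 83.9 CPM in the control library. Timp2 was 1799 and 991 CPM and Timp3 3226 and 2074 CPM in the Cebpa ΔSftpc library, and 1772 and 1028 CPM and 3452 and 2948 CPM in the other. So Timp1, Timp2 and Timp3 were higher on the Pi16 side in both libraries. For Timp1 in the Cebpa ΔSftpc library, however, 1 cell held 86 of the 302 UMIs on the Pi16 side, and the split was not repeated without it. Depth moved with this split: medians were 9213.5 and 6326 UMIs with and without Pi16 in the control library and 4918 and 1375.5 UMIs in the Cebpa ΔSftpc library, and its part in these differences was not tested.

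**Figure D4:**
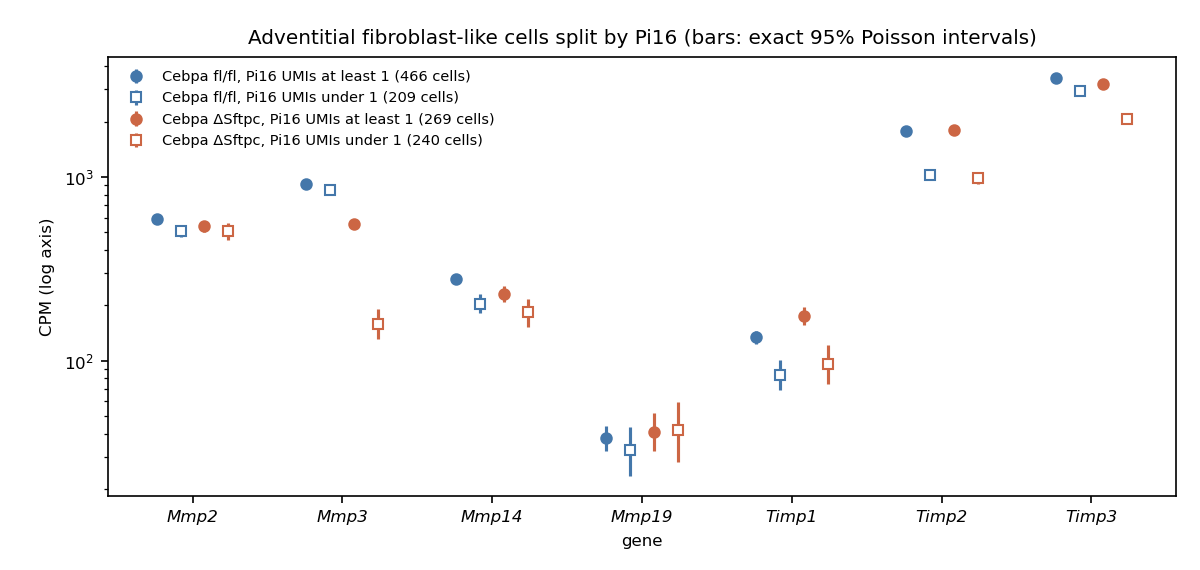
Level in CPM (log axis) of 7 genes in adventitial fibroblast-like cells with at least 1 Pi16 UMI (filled circles) and without (open squares), with exact 95% Poisson intervals as bars, for the control (blue, 466 and 209 cells) and Cebpa ΔSftpc library (orange, 269 and 240 cells). Of the 4 values of Mmp3, that of the Cebpa ΔSftpc cells without Pi16 stands lowest, at 158 CPM, while the 4 values of Mmp2 lie between 506 and 587 CPM.

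In the other mesenchymal classes, no member passed 2-fold. Of 7 members in alveolar fibroblast-like cells, none was past 2-fold higher or lower (0.988% and 1.99% of 5969 genes). Mmp2 was at 0.28 (-0.05 to 0.61), Mmp3 at 0.31 (-0.18 to 0.78) and Timp2 at 0.25 (0.08 to 0.41). In ductal myofibroblast-like cells 0 of 5 members passed (2.89% of 4116 genes higher and 1.82% lower). Timp1 came closest, at 0.99 (0.26 to 1.71) from 34 and 35 UMIs, and 16 of the 34 lay in 1 cell of the control library. With the stricter gate its ratio turned to -1.71. Timp3 was at 0.49 (0.36 to 0.62) there, from 1332 to 1871 CPM. Mmp3 had 22 UMIs and 1 UMI in these cells, too few for a ratio. In smooth muscle-like cells 0 of 3 members passed (1.15% of 2865 genes higher and 2.13% lower), and Timp3 was at -0.67 (-0.85 to -0.49), from 1491 to 936 CPM. The ratio of Timp3 therefore had opposite signs in the 2 contractile classes, ductal myofibroblast-like and smooth muscle-like cells, with intervals that did not overlap. In the Cebpa ΔSftpc library, 12 ductal myofibroblast-like cells held 50% of its UMIs. The 8 mesenchymal markers went from 3065 to 8990 CPM in ductal myofibroblast-like and from 3292 to 3439 CPM in smooth muscle-like cells. The surfactant genes Sftpc, Sftpa1 and Sftpb went from 12703 to 530 CPM in smooth muscle-like cells. The part of these shifts in the Timp3 ratios was not tested.

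Timp3 was higher in the capillary and arterial classes of the Cebpa ΔSftpc library. In aerocyte-like cells it went from 835 CPM (817 to 853, 1481 cells) to 1494 CPM (1469.7 to 1519, 2002 cells), a log2 ratio of 0.84 (0.80 to 0.88), and in general capillary-like cells from 163 CPM to 271 CPM, a ratio of 0.73 (0.67 to 0.80). Timp2 in the same cells was at -0.07 (-0.11 to -0.03) and -0.13 (-0.19 to -0.07). Timp3 in arterial-like cells was at 1.01 (0.73 to 1.28), from 275 to 553 CPM, the 1 of 2 members past 2-fold higher (2.48% of 4146 genes higher and 2.80% lower). In the Cebpa ΔSftpc library, however, 33 of its 222 UMIs lay in 1 arterial-like cell, and without the leading cell of each library the ratio was 0.87 and no longer past 2-fold. In venous-like and lymphatic-like cells it was lower, at -0.20 (-0.35 to -0.04) and -0.35 (-0.47 to -0.23), and 0 of 3 members passed 2-fold in venous-like cells (1.26% of 6801 genes higher and 0.426% lower). The endothelial classes thus differed in the sign of their Timp3 ratio. In arterial-like cells the 8 mesenchymal markers, all detected in both libraries, went from 665 to 916 CPM and the 7 adventitial markers from 99.6 to 456 CPM, and the part of these in the Timp3 ratio was not tested.

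In aerocyte-like cells, 3 of 6 members were past 2-fold higher (4.74% of 11050 genes) and none past 2-fold lower (0.715%). These were Mmp2 (33 and 75 UMIs, 3.42 to 7.86 CPM, ratio 1.20, 0.59 to 1.84), Mmp14 (29 and 61 UMIs, 3.002 to 6.39 CPM, ratio 1.09, 0.43 to 1.78) and Mmp9 (0 and 93 UMIs). For Mmp9, the level in the Cebpa ΔSftpc library, 9.75 CPM (7.87 to 11.9), was at least 31.4-fold higher before counting error, with 3 counts set in place of 0 (log2 ratio 4.97, 3.38 to 7.28). In general capillary-like cells, 2 of 8 members were past 2-fold higher (5.04% of 12572 genes) and 0 past 2-fold lower (0.907%). The place of Mmp9 among these 2 was again fixed by the UMI minimum. Mmp9 had 3 and 87 UMIs, a log2 ratio of 5.31 (3.71 to 7.61), and Timp1 went from 1.84 to 6.74 CPM, a ratio of 1.87 (1.36 to 2.41). In the Cebpa ΔSftpc library these UMIs lay in 2.25% to 3.65% of the cells of the class. With the library's free RNA subtracted, the ratio of Mmp9 was 0.47 in general capillary-like and 3.72 in aerocyte-like cells, and markers of other cells moved with these values.

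The 7 neutrophil markers went from 1.35 to 78.0 CPM in aerocyte-like and from 3.27 to 61.9 CPM in general capillary-like cells, and all 7 were detected in both classes of the Cebpa ΔSftpc library. As a percent of the neutrophil-like level, Mmp9 in aerocyte-like cells was 0.749% (0.605% to 0.918%), and S100a8, S100a9 and Retnlg were 0.335%, 0.359% and 0.361%. In general capillary-like cells, Mmp9 was 0.382% (0.306% to 0.471%) and S100a8 0.267%, and Mmp8 was 0.319% (0.208% to 0.467%). The 8 mesenchymal markers went from 70.0 to 136 CPM in aerocyte-like and from 106 to 167 CPM in general capillary-like cells, and all 8 were detected in both. The part of neutrophil or fibroblast RNA in the endothelial Mmp9, Mmp2, Mmp14 and Timp1 values was not tested beyond these numbers. With the library's free RNA subtracted, Timp3 in aerocyte-like cells had a log2 ratio of 0.93. Among aerocyte-like cells with at least 3000 UMIs, the ratio was 0.91 for Timp3 but 0.23 for Mmp2 and 0.48 for Mmp14, both no longer past 2-fold.

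Mmp14 was also higher in lymphatic-like cells, from 140.05 CPM (112 to 173, 117 cells) to 296 CPM (246 to 353, 100 cells), a log2 ratio of 1.08 (0.67 to 1.49). It was the only one of 3 members past 2-fold higher there (2.10% of 3904 genes), and none was past 2-fold lower (1.59%). Of its 124 UMIs in the Cebpa ΔSftpc library 33 came from 1 cell, and without the leading cell of each library the ratio was 0.89. In lymphatic-like cells the mesenchymal markers went from 155 to 119 CPM. The 6 leukocyte markers went from 11.4 to 193 CPM there and the 7 neutrophil markers from 1.63 to 122 CPM. The part of RNA of other cells in the Mmp14 ratio was not tested. The thinned shares of lymphatic-like cells with Mmp14 were 11.4% (6.21% to 18.7%) and 17.4% (10.1% to 27.1%), with overlapping intervals. In AT2-like cells, 1 of 3 members, Mmp14, was past 2-fold lower (1.64% of 9102 genes) and none past 2-fold higher (1.47%), but its ratio of -1.54 (-3.86 to 0.07) rests on 65 and 3 UMIs. It turned to 0.22 when cells of 2 gates were given to their leading class. Timp3 was at 0.39 (0.09 to 0.69) in AT2-like cells. In ciliated-like cells, where 0 of 2 members passed 2-fold (0.531% of 8100 genes higher and 2.56% lower), it was at 0.54 (0.19 to 0.89). Of its 94 UMIs in the 51 ciliated-like cells of the Cebpa ΔSftpc library, 22 lay in 1 cell, and the ratio was 0.33 without the leading cells and 0.03 with each cell weighted equally. The airway secretory marker went from 3799 to 85336 CPM in ciliated-like cells, and its part in the ratio was not tested. In platelet-like cells 0 of 3 members passed (2.81% of 2241 genes higher and 1.43% lower).

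**Figure D5:**
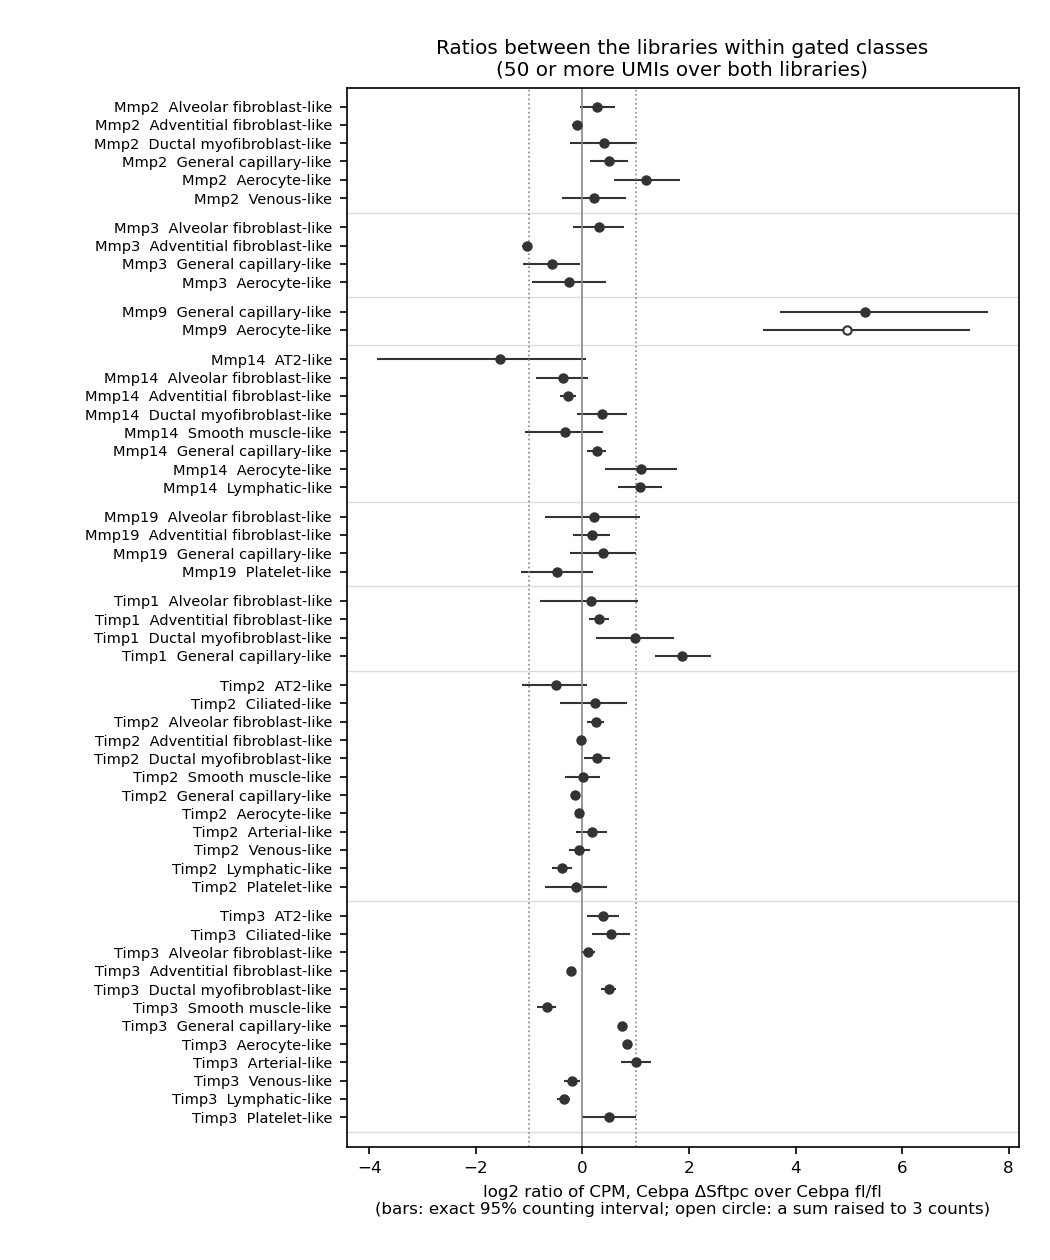
Log2 ratio of CPM in the Cebpa ΔSftpc to that in the control library (points), with exact 95% counting intervals (bars), for the 52 class and gene pairs with at least 50 UMIs, dotted lines marking 2-fold and an open circle a sum raised to 3 counts. Timp2 lies near 0 in most classes, Timp3 is spread from -0.67 in smooth muscle-like to 1.01 in arterial-like cells, and Mmp3 in adventitial fibroblast-like cells lies at -1.04.

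Genes whose pattern across classes was most like that of a member were found by Pearson's r of log2(CPM + 10) over 14 classes of the control and 20 of the Cebpa ΔSftpc library, as a description. The points share a library, and classes differ in depth. For Mmp2 these were Cygb (r = 0.94 and 0.95), Cpxm1 and Adh1, for Mmp3 Ptgfr (0.96 and 0.97), Gpc3 and Adh1, and for Timp1 Mfap5 (0.90 and 0.94) and Mmp2 itself (0.88 and 0.90). Mmp14 was most like Lama4 (0.92 and 0.92), P3h3 and Zfp354c. Timp3 was most like its overlapping gene Syn3 (0.98 and 0.97), Lamc1 and Poglut3, and Timp2 like Ctsl (0.90 and 0.90), Ctsf and Poglut3. For Mmp19 the likeness was lower (Cpt2, 0.81 and 0.76). Mmp8, Mmp9 and Mmp12 had under 200 UMIs in the control library and were left out.

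Other genes of matrix breakdown were read in the same cells. Of 16 other MMP genes listed, Mmp1a was not used here, and Mmp1b and Mmp7 had 0 UMIs in both libraries. Mmp15, a membrane-type MMP, stood at 181 CPM (172 to 191) and 204 CPM (177 to 233) in AT2-like cells, the highest class in both. Mmp11 was highest in AT1-like cells of the control library (148 CPM, 114 to 189) and in alveolar fibroblast-like cells of the Cebpa ΔSftpc library (86.4 CPM, 62.2 to 117). Mmp23 was highest in adventitial fibroblast-like cells (132 and 118 CPM), and Mmp25, the membrane-type MMP of neutrophils, in neutrophil-like cells of the Cebpa ΔSftpc library (62.9 CPM, 50.1 to 78.02). In adventitial fibroblast-like cells, 1 of 4 of these genes with enough UMIs was past 2-fold higher, where 2.29% of all genes were. This was Mmp15, from 4.68 to 12.7 CPM on 27 and 31 UMIs. Past 2-fold lower it was 0 of 4 (1.15% of all genes). In aerocyte-like cells the count was 0 of 3 in either direction (4.74% of all genes higher and 0.715% lower). Of the 3 other inhibitors, Timp4 was highest in smooth muscle-like cells (94.6 and 90.7 CPM), and Reck, a membrane-anchored MMP inhibitor, was highest in pericyte-like cells of the control library (492 CPM, 445 to 542), of which the Cebpa ΔSftpc library had 34, and stood at 76.3 and 73.1 CPM in adventitial fibroblast-like cells. A2m had 5 UMIs and 1 UMI in all.

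The plasminogen system activates several proMMPs. Plaur, the urokinase receptor, was highest in neutrophil-like cells of the Cebpa ΔSftpc library (596 CPM, 555 to 639). Of the ADAMTS proteases, targets of Timp3, 2 of 3 in aerocyte-like, 2 of 6 in general capillary-like and 2 of 4 in ductal myofibroblast-like cells passed 2-fold higher, and 0 of 8 in adventitial fibroblast-like cells. The share of all genes past 2-fold higher, against which this and the lists that follow are to be read, was 4.74%, 5.04%, 2.89% and 2.29% in these classes in turn. The ADAMTS genes past it were Adamts1 and Adamts9 in aerocyte-like, Adamts5 and Adamts15 in general capillary-like and Adamts2 and Adamts10 in ductal myofibroblast-like cells. Adamts1 was at 1.02 (0.75 to 1.29) in aerocyte-like and 1.71 (1.07 to 2.37) in lymphatic-like cells, and Adamts10 at 1.09 (0.79 to 1.39) in ductal myofibroblast-like cells. Of the ADAM proteases, 1 of 5, Adam8, passed 2-fold higher in both capillary classes, and it was highest in neutrophil-like cells (504 CPM, 467 to 544). Of 8 neutrophil granule genes, Lcn2 alone had enough UMIs in aerocyte-like cells and was past 2-fold higher there (4.87 to 11.4 CPM). Lcn2 was not confined to neutrophil-like cells, with 5122 UMIs in the control library. Among classes of at least 50 cells, it was highest there in lymphatic-like cells (588 CPM). In the Cebpa ΔSftpc library it was highest in neutrophil-like cells (1261 CPM). Of 7 macrophage genes of fibrosis, Trem2 was highest in interstitial macrophage-like cells of the Cebpa ΔSftpc library (295 CPM). Spp1 (605 CPM), Gpnmb (203 CPM) and Ctsk (479.9 CPM) were highest in its alveolar macrophage-like cells. Of the others, Cd9 led in platelet-like (9338 CPM) and Fabp5 in AT2-like cells (1310 CPM) of that library. Arg1 had 57 UMIs in that whole library and stood at no more than 1.72 CPM (0.468 to 4.39, T-like cells) in its classes of at least 50 cells. In the control library, Spp1 was highest in pericyte-like cells (7813 CPM). Whether single cells held these genes together with Mmp12 or Mmp19 was not tested. Of this list, 2 of 5 genes passed 2-fold higher in aerocyte-like and in general capillary-like cells and 1 of 5, Spp1, in adventitial fibroblast-like cells (3.47 to 131 CPM). In alveolar fibroblast-like cells it was 1 of 2 (0.988% of all genes). Past 2-fold lower were 1 of 2 in ductal myofibroblast-like, smooth muscle-like and platelet-like cells each and 1 of 3 in ciliated-like cells. The shares of all genes past 2-fold lower there were 1.82%, 2.13%, 1.43% and 2.56% in turn.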

How the data were processed

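The authors deposited, for each genotype, UMI counts per gene and cell barcode from 3′ single-cell libraries aligned to mm10. Cell Ranger is given as version 6.1.1 in the submitters' processing notes and as 5.0.0 in the matrix header. The study's cell numbers equal the deposited barcodes. Cells were kept if 200 genes or more were detected and mitochondrial counts made up 20% or less. Cells were gated on raw marker UMIs (each marker capped at 5), first by 6 lineages and then by 27 classes, with a sum of at least 3, at least 2 markers and a lead of 1.5 over the next, and cells meeting 2 gates were left out. Doublets were not called. Members and lists were chosen with earlier results of these data known, the form of the gate was set after marker counts were seen, and the splits by Pi16, chemokine and granule genes after values were seen.

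UMIs were summed per class and library and given as CPM with exact Poisson intervals (95%). Ratios put sums under 3 counts at 3 and have exact binomial intervals, and shares have Clopper-Pearson intervals, also after thinning to 1000 UMIs. Named likeness genes are the 3 with the highest lower r. Some genes of the lists and of this ranking are not reported here. The ratio step was tested on simulated data. The analysis used Python 3.11.15, numpy 2.4.6, scipy 1.17.1 and pandas 2.3.3. Alternatives were a stricter cell filter, deep cells, a stricter gate, cells of 2 gates, free RNA subtraction, leaving out the leading cell, equal cell weights, centring, another floor and a lower UMI minimum.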

Additional observations from a re-analysis of the deposited data

How the results depend on the processing

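No paired analysis was possible because each genotype is 1 library, and neither depth nor cell numbers can be told apart from genotype. Of the 52 ratios, 45 to 52 kept their direction under each alternative (47 of 51 with each cell weighted equally), and of 9 past 2-fold, 6 remained so in cells with at least 3000 UMIs. The 9 include Mmp9 in aerocyte-like and general capillary-like cells, whose place past 2-fold was fixed by the UMI minimum. With each cell weighted equally, the adventitial fibroblast-like log2 ratio was -0.29 for Mmp2, -1.19 for Mmp3 and -0.26 for Timp1, and the aerocyte-like one -0.18 for Timp2 and 0.67 for Timp3. Without the leading cell, Timp1 was at -0.020. The stricter gate gave -0.94 for Mmp3 in adventitial fibroblast-like cells and 0.91 for Timp3 in aerocyte-like cells. In aerocyte-like cells with at least 3000 UMIs, Timp2 was at -0.023 and Timp3 at 0.91. Timp3 was at 0.93 there with free RNA subtracted and at 0.79 with cells of 2 gates given to the leading class, which turned Mmp14 in AT2-like cells to 0.22. The cause was not tested for any of these. A minimum of 10 in place of 50 UMIs, which admits genes of wide counting error, gave more genes past 2-fold higher and lower: 767 and 360 in adventitial fibroblast-like, 492 and 430 in alveolar fibroblast-like, 851 and 461 in ductal myofibroblast-like, 519 and 656 in smooth muscle-like, 1323 and 316 in aerocyte-like, 1425 and 366 in general capillary-like, 682 and 549 in arterial-like, 675 and 533 in lymphatic-like and 996 and 163 in AT2-like cells. The main counts were 240 and 120, 59 and 119, 119 and 75, 33 and 61, 524 and 79, 634 and 114, 103 and 116, 82 and 62, and 134 and 149, in the same order.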
